A study of Mus musculus with 18 samples.

Results

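The mRNA of 37 receptor tyrosine kinases was followed in 18 libraries of mouse mammary tumour cells. The receptors were taken from a list of gene symbols that covers the receptor tyrosine kinase families other than the Eph receptors. The rule that picks them uses symbols and no measured value, although the list was drawn up with earlier results of these data known. All 37 were among the 24333 gene symbols shared by the count tables of both cell lines.

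168FARN and 67NR are cell lines from a mouse mammary carcinoma, grown in culture without other cells. In each line *Kmt2c* or *Kmt2d*, which encode histone methyltransferases that act at enhancers, was disrupted with Cas9 and 3 guides, and cells were enriched by rounds of sorting. Each knockout (KO) is therefore a sorted population rather than 1 clone. The paper reports reduced protein in the KOs, but in most of them some reads of the targeted regions were not mutant. The share of mutant reads was lowest in 67NR *Kmt2c* KO. Loss of a gene, as written below, therefore names the targeted population and does not mean complete loss in every cell. Polyadenylated RNA was sequenced from 6 groups of 3 libraries. In 168FARN these were WT, *Kmt2c* KO and *Kmt2d* KO, and the WT columns of that table carry the name of a control guide. In 67NR they were WT, *Kmt2c* KO and *Kmt2d* KO, with no guide named for the WT columns. All groups share the same medium and RNA kit, no treatment is named for any, and each KO is compared with the WT libraries of its own line.

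Receptor tyrosine kinases are membrane proteins that bind a growth factor, a matrix protein or a ligand on another cell, pair up and phosphorylate each other, which recruits adaptors to the RAS, PI3-kinase and phospholipase C pathways. In mammary tissue the ERBB receptors, the insulin-type receptors and MET are known from the epithelium, while the PDGF receptors and FGFR1 are known from the stroma and from cells of mesenchymal character. PTK7, RYK and the ROR receptors belong to the group that takes part in WNT signalling, and PTK7 and RYK are pseudokinases that transmit signals without an active kinase domain.

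Total counts ran from 14359760 to 43427382 in 168FARN and from 40951775 to 79251530 in 67NR. The counting of both tables was not alike: of the counts from 1 to 20, between 91.2% and 96.2% per library were even in 67NR, against 39.5% to 47.2% in 168FARN. The sources used here do not say why, so the 67NR counts and totals printed here may stand for fewer independent reads than their size, and halving the 67NR counts changed no number of called receptors. In each line the replicate 3 libraries stood apart from replicates 1 and 2. The mRNA of the targeted genes gave no check of the labels, since small indels need not lower it: in 168FARN *Kmt2c* differed from WT by -0.18 (SE 0.49) on the log2 scale in its own KO and *Kmt2d* by 0.71 (SE 0.36) in its own, and in 67NR the values were 0.63 (SE 0.14) and 0.22 (SE 0.23). Of 15 epithelial markers, 15 had a mean over 1 CPM (counts scaled to a common library total) in 67NR WT and 2 in 168FARN WT, where *Epcam* and *Cdh1* were under 1 CPM, although both lines carry a breast cancer label.

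By level per exon length, in CPM divided by the annotated exon length in kilobases (RPKM), *Axl* was the most abundant receptor mRNA in every group. AXL binds GAS6. In 168FARN WT its level was 195 ± 81.3 RPKM (SD, n = 3), or 47.9% of the summed RPKM of the receptors, and it was followed by *Ryk* at 54.5 ± 5.58 and the collagen receptor gene *Ddr2* at 45.3 ± 4.07. *Igf1r* at 25.8 ± 3.21 and the HGF receptor gene *Met* at 25.1 ± 5.23 RPKM did not differ beyond their spread. The spreads of *Pdgfra* at 17.2 ± 5.54 and *Fgfr1* at 13.4 ± 4.11 RPKM overlapped, but *Pdgfra* was the higher of the pair within each library. In 67NR WT *Axl* reached 82.6 ± 1.48 RPKM, 26.6% of the sum, before *Ryk* at 62.8 ± 12.9, *Igf1r* at 42.1 ± 2.27, *Ddr2* at 35.1 ± 12.2 and *Met* at 24.5 ± 5.34 RPKM. *Ptk7* was sixth there at 14.8 ± 3.71 RPKM and lay within the spread of *Ddr1* at 14.1 ± 2.41. In the 67NR KOs *Axl* made up 49.0% (*Kmt2c*) and 43.5% (*Kmt2d*) of the sum, and *Pdgfra* and *Fgfr1* entered the highest 7 receptors with *Pdgfra* at 26.2 ± 7.01 and 17.7 ± 4.06 RPKM. These ranks rest on the exon lengths of the annotation used, which for *Igf1r* came to 4476 bases.

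**Figure D1:**
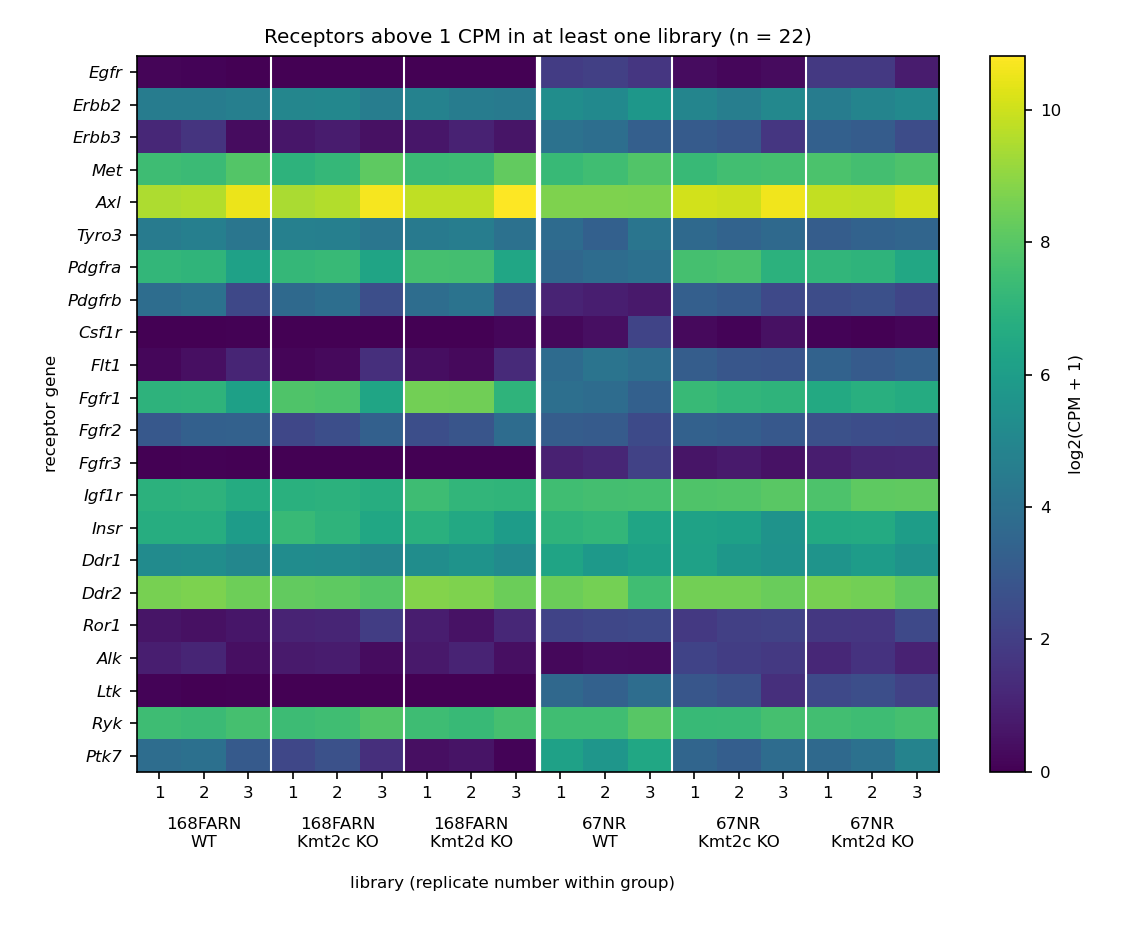
Heat map of log2(CPM + 1) for the 22 receptors that exceeded 1 CPM in at least 1 library (rows), over 18 libraries (columns, numbered by replicate within each group). *Axl* is the brightest row throughout, *Pdgfra* and *Fgfr1* are dark in the 3 67NR WT libraries and bright in the other 15, and *Ptk7* is darkest in 168FARN *Kmt2d* KO.

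Of the 37 receptors, 15 stayed under 1 CPM in all 18 libraries. These were *Erbb4*, *Mst1r*, *Mertk*, *Kit*, *Flt3*, *Kdr*, *Flt4*, *Fgfr4*, *Ror2*, *Ntrk2*, *Ntrk3*, *Ret*, *Musk*, *Tek* and *Ros1*, and their highest count in any library was 76, for *Mertk* in 67NR WT replicate 1. *Kit*, the receptor for stem cell factor, and *Ntrk2*, the receptor for BDNF, had 0 counts in every library, which allows up to 3 counts in each. *Ret*, the receptor that GDNF uses with a GFRA protein, had at most 4 counts in a library. After the filter on low counts, 18 receptors could be tested in 168FARN, 23 in 67NR and 25 in the fit of all 18 libraries. A receptor can pass that filter through the 1 group where it is high, so the counts of changed receptors that follow are descriptions of the tested members.

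Promoter sequences are shown for 3 receptors whose levels moved in both 67NR KOs, *Pdgfra* and *Alk* upward and *Ptk7* downward, so that the region each gene is transcribed from can be seen beside its values. They are RefSeq windows of 300 bases on GRCm38.p6, 250 before to 50 after the start, at chr5:75152001-75152300 (plus strand) for *Pdgfra*, chr17:72604258-72604557 (minus strand) for *Alk* and chr17:46629455-46629754 (minus strand) for *Ptk7*. Capitals mark GGGCGG or its reverse complement, the GC box.
Pdgfra: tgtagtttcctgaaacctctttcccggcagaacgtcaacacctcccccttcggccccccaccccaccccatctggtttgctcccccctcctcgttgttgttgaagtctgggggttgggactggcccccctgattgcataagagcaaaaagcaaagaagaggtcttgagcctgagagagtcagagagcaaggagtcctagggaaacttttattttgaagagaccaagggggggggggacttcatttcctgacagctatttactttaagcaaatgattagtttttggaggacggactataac
Alk: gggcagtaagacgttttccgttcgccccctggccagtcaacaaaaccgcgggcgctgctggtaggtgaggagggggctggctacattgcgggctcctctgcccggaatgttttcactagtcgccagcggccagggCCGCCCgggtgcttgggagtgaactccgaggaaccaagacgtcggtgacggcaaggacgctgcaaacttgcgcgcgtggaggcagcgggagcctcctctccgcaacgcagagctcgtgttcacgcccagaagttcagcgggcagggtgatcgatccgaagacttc
Ptk7: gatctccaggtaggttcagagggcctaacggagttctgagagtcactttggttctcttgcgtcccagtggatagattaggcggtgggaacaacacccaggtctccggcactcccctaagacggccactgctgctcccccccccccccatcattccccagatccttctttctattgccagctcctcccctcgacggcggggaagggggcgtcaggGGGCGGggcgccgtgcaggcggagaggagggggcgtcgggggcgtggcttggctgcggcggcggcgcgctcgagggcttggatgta

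The *Pdgfra* window held 5 CpG dinucleotides, the *Alk* window 28 and the *Ptk7* window 22, against a median of 7 (quartiles 3 and 20) over 32851 mouse promoter windows of the same length. 4 motifs were searched on both strands. GGGCGG occurred in 35.7% of all windows and once each in those of *Alk* and *Ptk7*, with no match in *Pdgfra*. CAGGTG, an E-box that ZEB and SNAI proteins can bind, occurred in 20.2% of all windows, TGANTCA, the AP-1 motif, in 7.81%, and TATAAA in 13.6%, and none of these letters was in the 3 windows shown. A promoter entry was found for 30 of the 37 receptors.

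**Figure D2:**
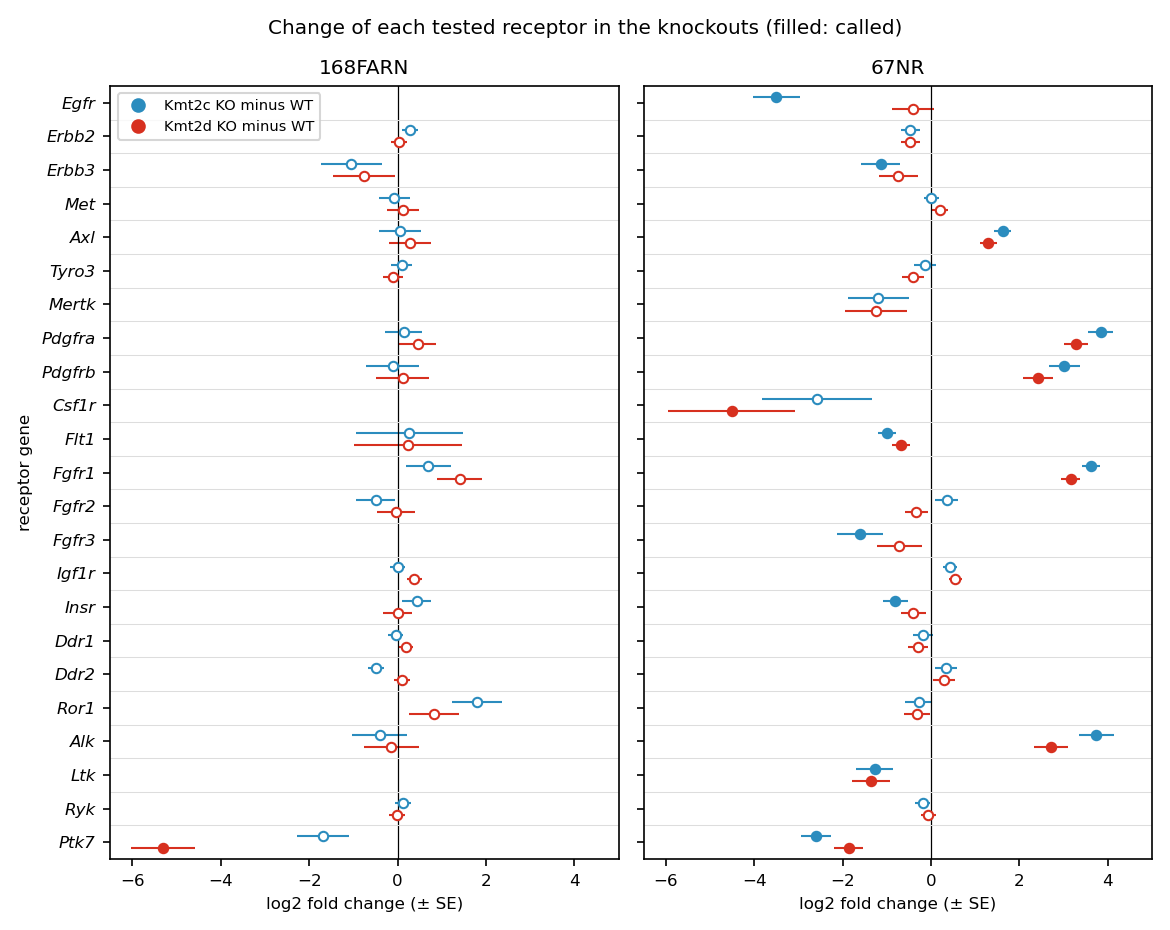
Log2 fold change with its standard error (horizontal bar) of each tested receptor in *Kmt2c* KO (blue) and *Kmt2d* KO (red) against WT of the same line, for 168FARN (left) and 67NR (right). Filled points are called, with adjusted p under 0.1 and a log2 fold change over 0.6 in size: 1 point in 168FARN, *Ptk7* in *Kmt2d* KO, and 21 points in 67NR.

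The effect of losing *Kmt2c* or *Kmt2d* on the receptors was asked first in 67NR. A gene was called when its adjusted p was under 0.1 and its log2 fold change exceeded 0.6 in size. The test was the quasi-likelihood test of edgeR, p-values were adjusted over all genes tested after Benjamini and Hochberg, and every adjusted p given here comes from it. Of 23 receptors tested in *Kmt2c* KO, 5 rose and 7 fell, where 17.9% of all 13665 genes tested rose and 17.4% fell (35.3% in all). In *Kmt2d* KO 5 rose and 4 fell, where 13.9% of all genes rose and 11.6% fell (25.5% in all). The median log2 fold change of the tested receptors was -0.19 for *Kmt2c* and -0.33 for *Kmt2d*, beside -0.02 over all genes in both comparisons. Both comparisons use the same 3 WT libraries.

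The receptors that rose were *Pdgfra*, *Pdgfrb*, *Fgfr1*, *Axl* and *Alk*, in both KOs. *Pdgfra* (chr5:75548316-75594229, mm9, plus strand) encodes the receptor for PDGF-AA and PDGF-CC and stood at 11.1, 13.1 and 14.9 CPM in the 67NR WT libraries, at 199, 207 and 122 CPM after *Kmt2c* loss and at 139, 131 and 88.0 CPM after *Kmt2d* loss. Every KO library lay well above every WT library, and replicate 3 was the lowest of each KO. The log2 fold change was 3.84 (SE 0.28, adjusted p = 1.5e-05) in *Kmt2c* KO and 3.28 (SE 0.28, adjusted p = 5.4e-05) in *Kmt2d* KO. *Pdgfrb*, whose product binds PDGF-BB, was low in WT, at 1.10, 0.867 and 0.689 CPM. It reached 8.81, 7.26 and 4.18 CPM after *Kmt2c* loss and 4.67, 5.15 and 3.74 CPM after *Kmt2d* loss, without overlap with WT, and rose by 3.01 (SE 0.35, adjusted p = 2.1e-04) and 2.42 (SE 0.34, adjusted p = 0.0011) on the log2 scale.

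*Fgfr1* (chr8:26624126-26686186, mm9, plus strand), which encodes a receptor for many FGFs, had 14.3, 13.1 and 8.91 CPM in 67NR WT. The *Kmt2c* KO libraries held 157, 137 and 129 CPM and the *Kmt2d* KO libraries 93.7, 112 and 101 CPM. No KO library came near the WT range. The log2 fold changes were 3.62 (SE 0.21, adjusted p = 5.1e-06) and 3.16 (SE 0.21, adjusted p = 1.6e-05), and in *Kmt2c* KO this was the smallest adjusted p among the receptors. No other member of its family was called higher. *Fgfr2* had a log2 fold change of 0.36 (adjusted p = 0.32) and -0.33 (adjusted p = 0.41), and *Fgfr3* fell in *Kmt2c* KO. *Fgfr4* stayed at 0.148 CPM or less in every library.

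*Axl*, at 417, 422 and 408 CPM in WT, measured 1073, 1006 and 1532 CPM after *Kmt2c* loss and 914, 870 and 1125 CPM after *Kmt2d* loss. The groups were apart, with the highest KO value in replicate 3 of each KO. It rose by 1.62 (SE 0.19, adjusted p = 2.5e-04) and 1.30 (SE 0.19, adjusted p = 0.0014) on the log2 scale. Its relative *Tyro3* had log2 fold changes of -0.13 (adjusted p = 0.74) and -0.41 (adjusted p = 0.29). *Alk*, best known from neural development and from fusions in lymphoma and lung cancer, rested on few counts. It had 0.189, 0.279 and 0.230 CPM in WT, from 10 to 19 counts, and 3.46, 2.95 and 2.44 CPM after *Kmt2c* loss and 1.33, 2.01 and 1.03 CPM after *Kmt2d* loss, from 41 to 265 counts. All KO libraries exceeded all WT libraries, and the log2 fold changes were 3.74 (SE 0.40, adjusted p = 1.3e-04) and 2.72 (SE 0.39, adjusted p = 0.0012). Each of these 5 receptors kept its call in both KOs when any 1 library of the compared groups was left out.

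Some receptors that fell in 67NR shared a family with a receptor that rose: *Ltk* with *Alk*, *Fgfr3* with *Fgfr1*, and *Csf1r* with *Pdgfra* and *Pdgfrb*. The rest came from other families. *Ptk7* (chr17:46701400-46766453, mm9, minus strand) stood at 72.8, 50.7 and 85.2 CPM in WT, against 10.6, 8.50 and 13.3 CPM after *Kmt2c* loss and 12.1, 15.2 and 27.5 CPM after *Kmt2d* loss. The ranges were separate, with replicate 3 the highest in each group. It fell by 2.61 on the log2 scale in *Kmt2c* KO (SE 0.34, adjusted p = 4.1e-04) and by 1.86 in *Kmt2d* KO (SE 0.33, adjusted p = 0.0038), and kept both calls without any 1 library.

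*Flt1* encodes a VEGF receptor that binds VEGFA tightly and signals weakly. Its levels were 12.9, 16.8 and 13.8 CPM in 67NR WT, 8.22, 6.45 and 5.94 CPM after *Kmt2c* loss and 9.41, 7.49 and 8.86 CPM after *Kmt2d* loss. All KO values lay below all WT values, and it fell by 0.99 (SE 0.20, adjusted p = 0.0050) and 0.68 (SE 0.20, adjusted p = 0.040) on the log2 scale. The call in *Kmt2d* KO was lost without WT replicate 2 or KO replicate 2, with an adjusted p of up to 0.14. *Ltk*, the relative of *Alk*, had 11.7, 9.27 and 13.5 CPM in WT, 6.37, 5.29 and 1.74 CPM after *Kmt2c* loss and 4.28, 5.08 and 3.44 CPM after *Kmt2d* loss. It moved against *Alk* in the same libraries, also without overlap, and fell by 1.27 (SE 0.42, adjusted p = 0.045) and 1.35 (SE 0.43, adjusted p = 0.049). In *Kmt2d* KO that call was lost without WT replicate 1, KO replicate 1 or KO replicate 3, with an adjusted p of up to 0.13.

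Within the ERBB family, *Egfr* separated the KOs of 67NR. It had 2.78, 3.14 and 2.23 CPM in WT, 0.287, 0.153 and 0.235 CPM after *Kmt2c* loss and 2.47, 2.52 and 0.778 CPM after *Kmt2d* loss. The *Kmt2c* KO libraries, with 10 to 22 counts, lay below the other 67NR libraries, while *Kmt2d* KO overlapped WT. It fell by 3.50 on the log2 scale in *Kmt2c* KO (SE 0.53, adjusted p = 9.4e-04) and had a log2 fold change of -0.41 (SE 0.47, adjusted p = 0.59) in *Kmt2d* KO. The direct comparison of the KOs gave -3.08 (SE 0.52, adjusted p = 0.037), *Kmt2c* KO minus *Kmt2d* KO. *Egfr* was the only one of 23 tested receptors called in that comparison, where 0.132% of all genes were higher and 1.28% lower (1.41% in all), and its call there was kept only without *Kmt2d* KO replicate 3, with an adjusted p from 0.017 to 0.19 over the libraries left out. With the replicate number as a block 4 receptors were called between the KOs, where 1.59% of genes were higher and 5.70% lower (7.29% in all): *Alk* (1.06, adjusted p = 0.079) and *Fgfr2* (0.69, adjusted p = 0.066) higher in *Kmt2c* KO, and *Egfr* (-3.02, adjusted p = 0.0028) and *Ptk7* (-0.71, adjusted p = 0.046) lower.

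*Erbb3*, which encodes the neuregulin receptor that signals through its partners, was at 15.7, 13.8 and 8.68 CPM in 67NR WT, 7.52, 6.49 and 2.32 CPM after *Kmt2c* loss and 9.10, 7.93 and 4.64 CPM after *Kmt2d* loss. Replicate 3 was the lowest library of each group, and *Kmt2d* KO overlapped WT. It fell by 1.14 in *Kmt2c* KO (SE 0.44, adjusted p = 0.078), a call kept in 2 of the 6 fits that left out a library and lost without WT replicate 1 or 2 or without KO replicate 2 or 3 (adjusted p up to 0.19). In *Kmt2d* KO the log2 fold change was -0.74 (adjusted p = 0.28), and with the replicate block it was -0.76 (adjusted p = 0.011), past the threshold. With the block 5 receptors rose and 5 fell in *Kmt2d* KO, where 17.4% of genes rose and 15.4% fell (32.7% in all). *Erbb2*, the partner that binds no ligand, had log2 fold changes of -0.47 in both KOs (adjusted p = 0.14 and 0.17).

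*Insr*, the insulin receptor gene, measured 129, 144 and 81.5 CPM in 67NR WT, 74.8, 70.1 and 45.5 CPM after *Kmt2c* loss and 94.3, 96.1 and 64.0 CPM after *Kmt2d* loss. Replicate 3 was again the lowest in each group, and the *Kmt2c* KO range ended just under the WT range. It fell by 0.81 in *Kmt2c* KO (SE 0.28, adjusted p = 0.050), which was lost without WT replicate 1 or 2 or KO replicate 3 (adjusted p up to 0.15), and had a log2 fold change of -0.40 (adjusted p = 0.35) in *Kmt2d* KO. *Igf1r*, the receptor gene for the insulin-like growth factors, had 178, 190 and 198 CPM in WT, 225, 231 and 265 CPM after *Kmt2c* loss and 220, 278 and 287 CPM after *Kmt2d* loss. The KO libraries were all above WT, but the log2 fold changes of 0.43 (adjusted p = 0.048) and 0.55 (adjusted p = 0.026) were under the fold threshold.

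*Fgfr3* was low, at 0.993, 1.25 and 3.33 CPM in 67NR WT, 0.548, 0.734 and 0.423 CPM after *Kmt2c* loss and 0.812, 1.16 and 1.23 CPM after *Kmt2d* loss. WT replicate 3 held the highest value, and *Kmt2d* KO overlapped WT. It fell by 1.61 in *Kmt2c* KO (SE 0.52, adjusted p = 0.041), lost without WT replicate 3 or *Kmt2c* KO replicate 1 or 3 (adjusted p up to 0.13), and had a log2 fold change of -0.72 (adjusted p = 0.37) in *Kmt2d* KO. *Csf1r*, the macrophage colony-stimulating factor receptor gene, had 0.165, 0.353 and 3.67 CPM in WT, the last from 160 counts, 0.209, 0.0611 and 0.399 CPM after *Kmt2c* loss and 0.0738, 0 and 0.10 CPM after *Kmt2d* loss. WT replicate 3 stood far above all other libraries. The fall of 4.51 on the log2 scale in *Kmt2d* KO (SE 1.44, adjusted p = 0.052) became -2.09 (adjusted p = 0.20) without that library, and the call was also lost without KO replicate 1 or 2. Over the libraries left out the log2 fold change ran from -5.04 to -2.09. With the replicate block *Csf1r* was also called lower in *Kmt2c* KO (-1.94, adjusted p = 0.066), which made 5 higher and 8 lower, where 21.3% of genes rose and 19.9% fell (41.3% in all). Of 10 macrophage markers, *Ptprc*, *Adgre1*, *Itgam*, *Tyrobp*, *Fcer1g* and *C1qa* had a mean under 1 CPM in all 6 groups, with *Tyrobp* at 0 in every library. The other 4 were measured in 67NR: *Cd68* ran from 18.7 to 79 CPM and was not called, and *Cd14*, *Mrc1* and *Lyz2* rose in both KOs, by 1.48, 5.05 and 2.81 on the log2 scale in *Kmt2c* KO. The summed level of the 10 was 29.3 to 48.6 CPM in WT, 48.9 to 91.4 CPM after *Kmt2c* loss and 45.2 to 93.5 CPM after *Kmt2d* loss, and their part in the *Csf1r* values was not tested.

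*Met*, *Tyro3*, *Ddr1*, *Ddr2*, *Ryk* and *Ror1* were not called in either 67NR KO, with or without the block. *Met*, the HGF receptor gene, ranged from 153 to 234 CPM over the 9 libraries and *Ryk* from 157 to 254 CPM. The collagen receptor genes *Ddr1* and *Ddr2* ranged from 45 to 77.7 and from 180 to 385 CPM. *Ror1*, which encodes a WNT5A receptor, ranged from 2.26 to 4.27 CPM. *Mertk*, at 0.999 CPM or less, was tested in 67NR and was not called.

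**Figure D3:**
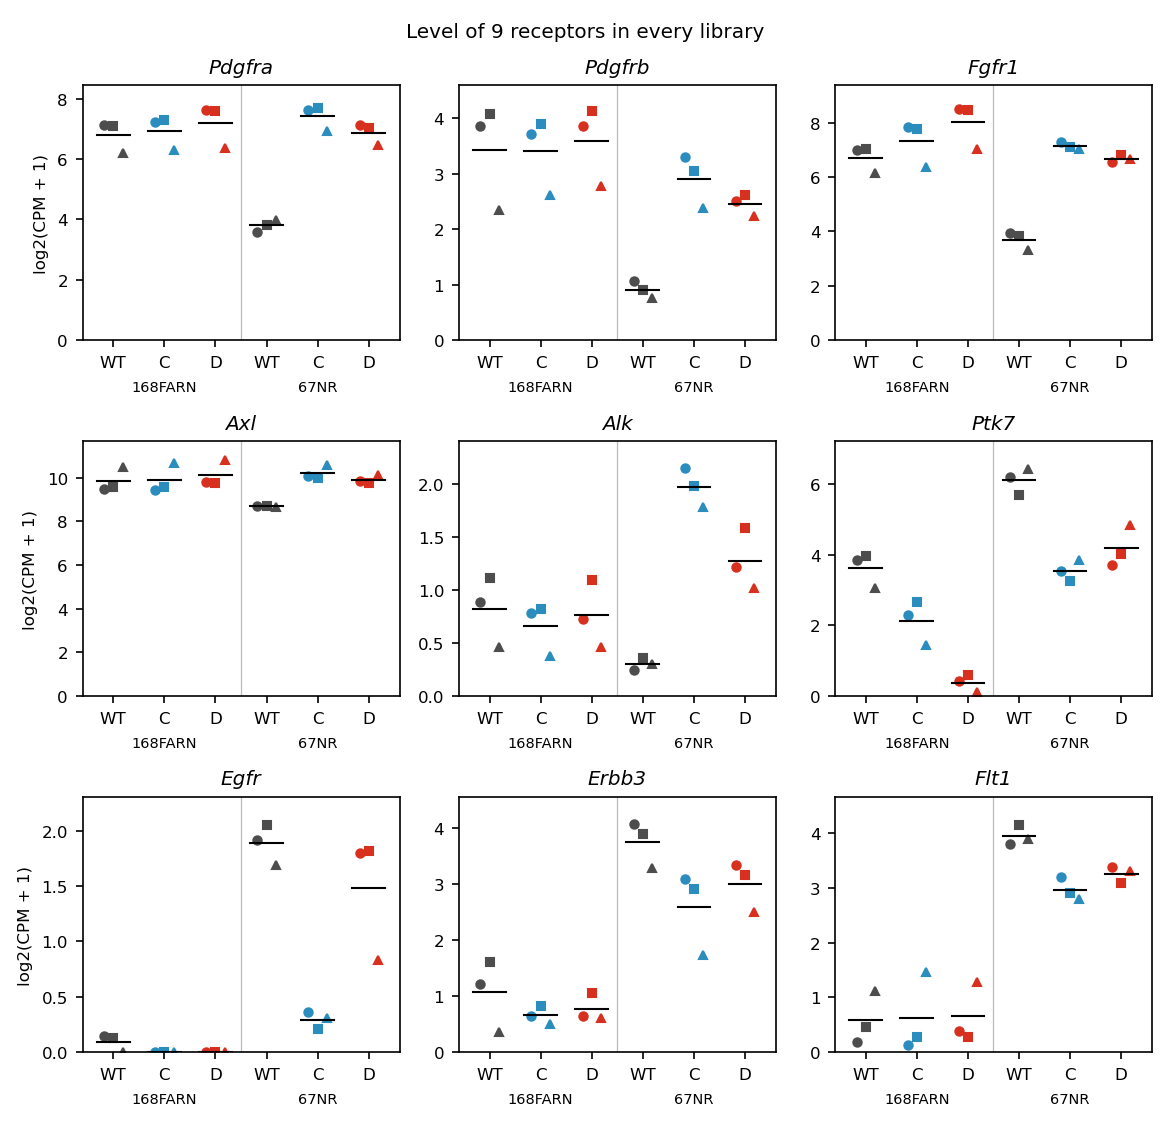
Log2(CPM + 1) of 9 receptors in every library of 168FARN (left of the grey line) and 67NR (right), for WT (grey), *Kmt2c* KO (C, blue) and *Kmt2d* KO (D, red). Circles, squares and triangles are replicates 1, 2 and 3, bars are group means, and each panel has its own scale from 0. *Pdgfra*, *Pdgfrb*, *Fgfr1*, *Axl* and *Alk* are higher in all 6 67NR KO libraries than in the 3 WT libraries, and *Ptk7* is lower in the KOs of both lines.

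Other genes moved in the same 67NR libraries. The summed level of 15 epithelial markers was 3848 to 5828 CPM in WT, 744 to 1137 CPM after *Kmt2c* loss and 1269 to 2283 CPM after *Kmt2d* loss, and 15 and 12 of the 15 fell. The summed level of 16 mesenchymal markers was 4186 to 6522, 6085 to 9935 and 5259 to 9333 CPM. Of 14 tested, 9 rose and 1 fell in each KO. Over all genes 17.9% rose and 17.4% fell in *Kmt2c* KO, and 13.9% rose and 11.6% fell in *Kmt2d* KO. The mesenchymal marker that fell was *Fn1*, from 1868 to 5799 CPM in WT to 682 to 1363 CPM after *Kmt2c* loss. Its log2 fold changes were -1.97 (adjusted p = 0.0076) in *Kmt2c* KO and -1.56 (adjusted p = 0.031) in *Kmt2d* KO. *Zeb1*, for a repressor of epithelial genes, rose by 3.86 and 3.38 on the log2 scale, and *Cdh1*, for E-cadherin, fell from 458 to 516 CPM in WT to between 53.1 and 74.4 CPM after *Kmt2c* loss. The part of these genes in the receptor changes was not tested. In bulk RNA a change in the share of cells of a kind and a change of RNA per cell cannot be told apart. Of 10 endothelial markers, *Pecam1*, *Tie1*, *Emcn*, *Esam*, *Cldn5*, *Robo4* and *Erg* had a mean under 1 CPM in all groups, and the other 3 did not. *Cdh5*, for VE-cadherin, rose in both 67NR KOs (2.60 and 1.75 on the log2 scale, at 1.85 CPM or less) and in 168FARN *Kmt2c* KO (2.61, adjusted p = 0.054), to 4.77, 4.97 and 4.57 CPM. *Vwf* rose in both 67NR KOs, at 0.663 CPM or less, and reached 10.8 CPM in 168FARN *Kmt2d* KO replicate 1. *Egfl7* fell in 67NR *Kmt2c* KO, from 2.72 to 8.27 CPM in WT to 0.550 to 2.23 CPM. The summed level of the 10 ran from 3.42 to 8.82 CPM in 67NR WT, 2.58 to 4.46 CPM after *Kmt2c* loss and 1.90 to 6.28 CPM after *Kmt2d* loss.

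In 168FARN, *Ptk7* was the only receptor called in the edgeR fit of all 9 libraries without a block. None of 18 receptors tested was called in *Kmt2c* KO, where 0.196% of 12253 genes were higher and 0.163% lower (0.359% in all), and 3 had an unadjusted p under 0.05. In *Kmt2d* KO 1 fell and none rose, where 0.147% of genes were higher and 0.139% lower (0.286% in all). *Ptk7* had 13.5, 14.7 and 7.38 CPM in WT, 3.91, 5.37 and 1.72 CPM after *Kmt2c* loss and 0.351, 0.501 and 0.0754 CPM after *Kmt2d* loss, the last from 8, 7 and 2 counts. The 3 groups did not overlap, and replicate 3 was the lowest of each. *Ptk7* fell by 5.31 on the log2 scale in *Kmt2d* KO (SE 0.73, adjusted p = 0.049). This call was kept without WT replicate 3 and lost without any other library of the 6. Over these 6 fits the adjusted p ran from 0.085 to 0.29 and the log2 fold change from -5.79 to -4.78. In *Kmt2c* KO the log2 fold change was -1.69 (SE 0.59, adjusted p = 0.61).

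A fit with the replicate number as a block moved the counts in 168FARN. The study treats collection time as a batch, but no label says that libraries of equal number were collected together. With the block 2 receptors rose and 1 fell in *Kmt2c* KO, where 3.66% of genes rose and 3.57% fell (7.23% in all), and 1 rose and 1 fell in *Kmt2d* KO, where 2.73% rose and 3.17% fell (5.90% in all). *Ptk7* fell by 1.77 in *Kmt2c* KO (SE 0.20, adjusted p = 2.0e-04) and by 5.37 in *Kmt2d* KO (SE 0.29, adjusted p = 1.2e-06), and between the KOs it was higher in *Kmt2c* KO by 3.60 (SE 0.31, adjusted p = 5.3e-05), against 3.62 (adjusted p = 0.16) without the block. Between the KOs no receptor was called without the block, where 0.131% of genes were higher in *Kmt2c* KO and 0.122% lower (0.253% in all), and with it 1 was higher and 1 lower, where 2.89% and 2.44% of genes were (5.33% in all). DESeq2's Wald test without a block also called 2 receptors in *Kmt2c* KO and 1 between the KOs.

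*Fgfr1* in 168FARN stood at 126, 129 and 70.2 CPM in WT, 229, 217 and 82.0 CPM after *Kmt2c* loss and 366, 357 and 131 CPM after *Kmt2d* loss. Replicate 3 was low in every group, *Kmt2d* KO lay above WT by a narrow margin at its lowest library, and *Kmt2c* KO overlapped WT. The log2 fold changes were 0.70 (SE 0.50, adjusted p = 1.0) and 1.41 (SE 0.51, adjusted p = 0.71), and with the block 0.61 (SE 0.14, adjusted p = 0.016) and 1.31 (SE 0.14, adjusted p = 1.4e-04), both past the thresholds. Between the KOs the block gave -0.70 (adjusted p = 0.010), lower in *Kmt2c* KO. *Ror1* had 0.513, 0.397 and 0.568 CPM in WT, 1.09, 1.20 and 2.90 CPM after *Kmt2c* loss and 0.833, 0.429 and 1.32 CPM after *Kmt2d* loss. The *Kmt2c* KO values were all above WT, with a log2 fold change of 1.80 (SE 0.56, adjusted p = 0.50) and, with the block, 1.74 (SE 0.38, adjusted p = 0.014).

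*Pdgfra*, *Pdgfrb*, *Axl* and *Alk* were not called in 168FARN with or without the block. *Pdgfra* had 140, 135 and 73.0 CPM in WT, 148, 155 and 78.5 in *Kmt2c* KO and 198, 192 and 82.4 in *Kmt2d* KO, with log2 fold changes of 0.14 (SE 0.42) and 0.46 (SE 0.42). Each *Kmt2d* KO library exceeded the WT library of its number, and with the block the value there was 0.41 (SE 0.11, adjusted p = 0.040), under the fold threshold. *Axl* ranged from 688 to 1799 CPM over the 9 libraries, and the 3 replicate 3 libraries held its highest values, 1454, 1629 and 1799 CPM. *Ddr2* was lower in every *Kmt2c* KO library, at 295, 282 and 243 CPM against 382, 415 and 347 CPM in WT, a log2 fold change of -0.48 that was under the fold threshold with and without the block (adjusted p = 0.014 and 0.69).

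How far the KO effects differed between the lines was tested as the effect in 67NR minus that in 168FARN, over 18 libraries. For *Kmt2c* KO 5 receptors had a more positive effect in 67NR and 3 a more negative one, where 8.49% and 7.55% of 13882 genes did. The 5 were *Pdgfra* (3.63, SE 0.52, adjusted p = 2.0e-04), *Alk* (4.05, SE 0.74, adjusted p = 0.0017), *Fgfr1* (2.84, SE 0.56, adjusted p = 0.0032), *Pdgfrb* (3.03, SE 0.72, adjusted p = 0.011) and *Axl* (1.47, SE 0.53, adjusted p = 0.087). The 3 were *Ror1* (-2.17, adjusted p = 0.034), *Insr* (-1.32, adjusted p = 0.069) and *Erbb2* (-0.83, adjusted p = 0.086). For *Kmt2d* KO 5 had a more positive effect in 67NR and none a more negative one, where 6.68% and 3.92% of genes did: *Pdgfra* (2.75, adjusted p = 0.0030), *Ptk7* (3.44, adjusted p = 0.0079), *Alk* (2.80, adjusted p = 0.031), *Pdgfrb* (2.24, adjusted p = 0.073) and *Fgfr1* (1.68, adjusted p = 0.086). *Ptk7* fell in both lines, so its positive value means a larger fall in 168FARN. For *Kmt2c* KO the difference in *Ptk7* was -1.0 (SE 0.64, adjusted p = 0.40), and with the replicate block -0.92 (SE 0.26, adjusted p = 0.011), past the threshold. With the replicate block 7 receptors were more positive and 5 more negative for *Kmt2c*, where 17.4% and 17.2% of genes were, and *Fgfr2* (0.89, adjusted p = 0.026), *Ddr2* (0.78, adjusted p = 0.0059) and *Flt1* (-1.21, adjusted p = 0.034) were called besides *Ptk7*. For *Kmt2d* 6 were more positive and 2 more negative with the block, where 15.4% and 13.0% of genes were. The 3 gained were *Axl* (0.95, adjusted p = 7.6e-04 against 0.36 without the block), *Ror1* (-1.22, adjusted p = 0.053) and *Csf1r* (adjusted p = 0.076), which had at most 4 counts in a 168FARN library.

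The lines already differed in these receptors before any KO. Of 25 receptors tested, 12 were higher in 67NR WT than in 168FARN WT and 6 lower, where 22.3% and 16.9% of genes were. The 6 lower ones were *Pdgfra* (11.1 to 14.9 CPM against 73.0 to 140 CPM), *Fgfr1* (8.91 to 14.3 against 70.2 to 129), *Pdgfrb* (0.689 to 1.10 against 4.07 to 15.8), *Axl* (408 to 422 against 725 to 1454), *Alk* (0.189 to 0.279 against 0.379 to 1.16) and *Tyro3* (9.07 to 17.5 against 17.9 to 24.7). Their log2 differences ran from -3.64 for *Pdgfrb* to -0.70 for *Tyro3*, and the adjusted p from 9.8e-06 for *Pdgfra* to 0.037 for *Tyro3*, which was lost without 168FARN WT replicate 2, 67NR WT replicate 1 or 67NR WT replicate 2. This comparison shares the 67NR WT libraries with those of the 67NR KOs. Side by side, the 67NR *Kmt2c* KO and 168FARN WT libraries held 122 to 207 and 73.0 to 140 CPM of *Pdgfra*. They held 129 to 157 and 70.2 to 129 CPM of *Fgfr1*, and 1006 to 1532 and 725 to 1454 CPM of *Axl*. For *Pdgfrb* the values were 4.18 to 8.81 and 4.07 to 15.8 CPM. *Alk* lay above the 168FARN WT range, at 2.44 to 3.46 against 0.379 to 1.16 CPM. *Tyro3* lay below the 168FARN WT range, at 9.72 to 12.1 against 17.9 to 24.7 CPM.

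Among the 12 receptors higher in 67NR WT, several were close to absent from 168FARN. *Ltk* had at most 2 counts and *Fgfr3* at most 1 count in a 168FARN library, against 586 to 990 and 84 to 145 counts in 67NR WT, and *Egfr* at most 3 counts against 97 to 235. *Flt1* measured 0.137, 0.367 and 1.18 CPM in 168FARN WT and *Erbb3* 1.33, 2.05 and 0.284 CPM, both below all 67NR WT libraries. *Ptk7* was higher in 67NR WT by 2.55 (SE 0.47, adjusted p = 5.0e-04) and *Ror1* by 2.97 (SE 0.47, adjusted p = 1.2e-04) on the log2 scale. *Erbb2* (0.85), *Ddr1* (0.92) and *Igf1r* (0.71) were higher by smaller steps, the call of *Igf1r* being lost without 168FARN WT replicate 3, while *Mertk* and *Csf1r* rested on few counts. Line and any difference in handling or counting of the lines cannot be told apart.

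The ligands of these receptors were read from a list of 69 genes, of which 44 could be tested in 67NR and 37 in 168FARN. In 67NR 20 rose and 8 fell in *Kmt2c* KO, with a median log2 fold change of 0.47 beside -0.02 over all genes, and 21 rose and 7 fell in *Kmt2d* KO, with a median of 0.54 beside -0.02. Over all genes 17.9% rose and 17.4% fell in the former, and 13.9% and 11.6% in the latter. In 168FARN none was called in either KO, with 7 and 4 at an unadjusted p under 0.05. With the block 6 rose and 4 fell there in *Kmt2c* KO (3.66% and 3.57% over all genes), and 5 rose and 5 fell in *Kmt2d* KO (2.73% and 3.17%).

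Of 8 FGF genes tested in 67NR, 5 rose in each KO and none fell in the fit without the block. Over all genes 17.9% rose and 17.4% fell in *Kmt2c* KO, and 13.9% rose and 11.6% fell in *Kmt2d* KO. With the replicate block 5 FGF genes rose and 1 fell in *Kmt2c* KO, where 21.3% of genes rose and 19.9% fell. *Fgf10*, which signals mainly through an FGFR2 isoform, had 0.414, 0.411 and 0.138 CPM in WT, 57.7, 59.5 and 36.1 CPM after *Kmt2c* loss and 34.6, 34.8 and 18.9 CPM after *Kmt2d* loss. No KO library came within reach of WT, and the log2 fold changes were 7.33 (SE 0.48, adjusted p = 8.3e-06) and 6.53 (SE 0.46, adjusted p = 2.2e-05). *Fgf1* rose by 3.13 and 1.83 on the same scale and *Fgf18* by 2.92 and 1.83.

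Of 9 EGF-type ligands tested in 67NR, 6 rose and 1 fell in *Kmt2c* KO, where 17.9% of all genes rose and 17.4% fell. In *Kmt2d* KO 7 rose and 1 fell, where 13.9% of all genes rose and 11.6% fell. *Ereg*, for epiregulin, rose from 3.67 to 8.58 CPM in WT to between 160 and 233 CPM after *Kmt2c* loss and between 109 and 160 CPM after *Kmt2d* loss, by 5.07 and 4.60 on the log2 scale (adjusted p = 1.2e-05 and 2.9e-05). *Hbegf* rose by 1.84 and 1.5 and the neuregulin gene *Nrg2* by 4.70 and 3.70. *Tgfa*, an EGFR ligand, fell from 62.5 to 75.2 CPM in WT to 16.4 to 23.7 CPM after *Kmt2c* loss and 25.5 to 43.7 CPM after *Kmt2d* loss, by 1.74 and 1.01.

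Some ligands moved whose receptor was close to absent. *Kitl*, for stem cell factor, had 113, 125 and 42.0 CPM in 67NR WT, 720, 797 and 677 CPM after *Kmt2c* loss and 654, 595 and 437 CPM after *Kmt2d* loss, a rise of 3.05 (SE 0.38, adjusted p = 3.2e-04) and 2.67 (SE 0.38, adjusted p = 0.0011), while *Kit* had 0 counts in all libraries. *Gdnf* had 3.24, 3.75 and 3.19 CPM in WT and rose by 4.76 (SE 0.29) and 4.19 (SE 0.28), to between 67.7 and 102 CPM after *Kmt2c* loss and between 38.7 and 68.9 CPM after *Kmt2d* loss, with *Ret* at 4 counts or less. *Mst1*, for the ligand of MST1R, rose by 4.49 and 3.79 with *Mst1r* at 6 counts or less in every library. *Gas6*, for the ligand of AXL, had 0 counts in every 67NR WT library and at most 0.0469 CPM in a 67NR KO library, against 14.1 to 99.6 CPM over the 168FARN libraries.

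Of 8 ligands of the PDGF and VEGF receptors tested in 67NR, 1 rose and 3 fell in each KO, with medians of -0.20 and -0.22. Over all genes 17.9% rose and 17.4% fell in *Kmt2c* KO, and 13.9% and 11.6% in *Kmt2d* KO. *Pdgfa*, for a ligand of PDGFRA, was not called, at 72.6, 81.9 and 94.4 CPM in WT and from 101 to 119 CPM in the KO libraries, all above WT. *Pdgfc* had 122, 136 and 43.7 CPM in 67NR WT, 9.45, 12.9 and 6.85 CPM after *Kmt2c* loss and 18.2, 15.9 and 12.3 CPM after *Kmt2d* loss. It fell by 3.29 (SE 0.43, adjusted p = 4.4e-04) and 2.62 (SE 0.42, adjusted p = 0.0023) in the libraries where *Pdgfra* rose. *Pdgfb* fell by 2.85 and 2.49 and *Vegfc* by 2.82 and 2.12, while *Figf*, for VEGF-D, rose by 4.44 and 3.95. *Agrn*, for agrin, the matrix protein that acts on MUSK through LRP4, fell by 1.85 and 1.64, and *Lrp4* by 2.86 and 2.85.

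**Figure D4:**
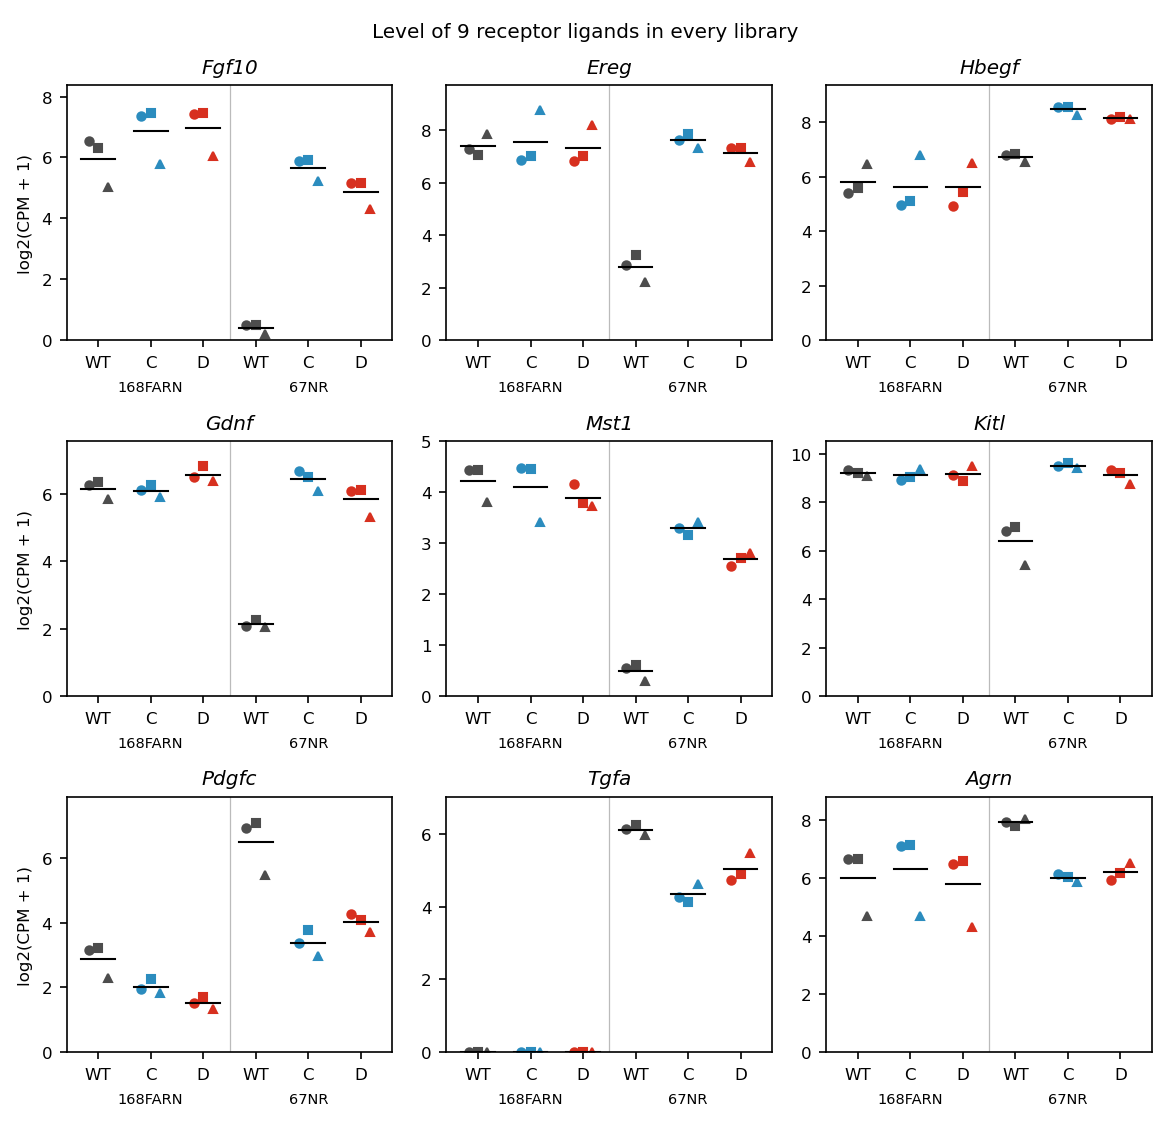
Log2(CPM + 1) of 9 ligand genes in every library, with the same groups, colours and symbols as in the plot of the receptors; each panel has its own scale from 0. *Fgf10*, *Ereg*, *Hbegf*, *Gdnf*, *Mst1* and *Kitl* are higher in all 67NR KO libraries than in 67NR WT, *Pdgfc*, *Tgfa* and *Agrn* are lower, and *Tgfa* is at 0 throughout 168FARN.

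Of 12 coreceptor genes tested in 67NR, 3 rose and 3 fell in *Kmt2c* KO and 1 rose and 4 fell in *Kmt2d* KO, where 35.3% and 25.5% of all genes were called. *Sdc3*, for a heparan sulfate proteoglycan that presents growth factors, had 7.21, 5.69 and 7.37 CPM in 67NR WT, 91.9, 73.0 and 91.7 CPM after *Kmt2c* loss and 36.8, 43.6 and 51.4 CPM after *Kmt2d* loss. It rose by 3.75 and 2.78 and was higher in *Kmt2c* KO than in *Kmt2d* KO by 0.97 (adjusted p = 0.055). *Sdc3* was also the 1 coreceptor called in 168FARN, in *Kmt2c* KO, at 137, 142 and 75.4 CPM against 35.9, 40.2 and 30.5 CPM in WT (1.74, SE 0.28, adjusted p = 0.081). With the block 4 coreceptors rose and 1 fell there, and 1 rose and 1 fell in 168FARN *Kmt2d* KO, of 12 tested. Over all genes 0.359% were called in 168FARN *Kmt2c* KO without the block and 7.23% with it. In 168FARN *Kmt2d* KO the shares were 0.286% and 5.90%. *Sort1*, for the sorting receptor sortilin, had log2 fold changes of -4.61 and -4.17 in the 67NR KOs.

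Of 28 adaptor genes tested in 67NR, 6 rose and 5 fell in *Kmt2c* KO and 4 rose and 5 fell in *Kmt2d* KO, with medians of -0.02 and -0.01, near the 35.3% and 25.5% of all genes called. *Irs1*, the adaptor of the insulin-type receptors, fell by 2.36 (adjusted p = 5.2e-04) and 1.71 (adjusted p = 0.0045), and *Grb7*, which binds ERBB receptors, fell by 2.04 and 1.62. *Shc2* rose by 4.33 and 4.09 from WT levels of at most 0.147 CPM. Of 21 genes that restrain receptor signalling, 5 rose and 6 fell in *Kmt2c* KO and 2 rose and 3 fell in *Kmt2d* KO, beside the same shares. The phosphatase gene *Ptprf* fell by 2.67 and 1.66 and the ubiquitin ligase gene *Cblc* by 2.19 and by 1.08, while *Socs3* rose by 1.93 and 1.80. In 168FARN 1 of 19 such genes was called, *Ubash3b* in *Kmt2c* KO, with 0, 0 and 0.0273 CPM against 0.547, 0.825 and 1.09 CPM in WT (adjusted p = 0.081). With the block 2 rose and 2 fell in 168FARN *Kmt2c* KO and 2 rose and 1 fell in *Kmt2d* KO. None of 25 adaptor genes was called in either 168FARN KO, with 1 and 2 at an unadjusted p under 0.05, and with the block 3 and 4 rose. Over all genes the 168FARN *Kmt2c* and *Kmt2d* KOs had 0.359% and 0.286% called without the block, and 7.23% and 5.90% with it.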

How the data were processed

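The values were gene counts for 24360 symbols per line, deposited by the authors as raw counts, whole numbers without normalization, after alignment with STAR to mm9 in the VIPER pipeline. The STAR version, the annotation and the strand setting were not given in the sources used here. Low counts were nearly all even in 67NR only, and the 67NR counts were also halved and tested. Each line was fitted with edgeR 4.0.16 (R 4.3.3; filterByExpr, TMM, robust quasi-likelihood) over its 9 libraries, with genotype as the factor, and comparisons between the lines over 18 libraries. CPM were scaled by TMM over 18 libraries, and RPKM used GENCODE vM1 exons (mm9). The study's methods define replicates by a passage between collections and treat collection time as a batch. No label names separate cultures, so p-values measure the spread between these samples, which may be technical. Deviations from group means of libraries with the same number correlated between genotypes (0.65 to 0.90 for 168FARN, 0.35 to 0.72 for 67NR), so the numbers pair the samples, although replicates 1 and 2 correlated with each other alike (0.62 to 0.73 and 0.28 to 0.52). Receptors called with or without this block are named, and from each other list at most 3 called genes per direction and comparison, apart from a gene that is not reported here. *Cdh1*, *Gas6*, *Igf1r*, *Ddr2* and other uncalled genes with values were chosen after their values were seen. The receptors and lists were chosen with earlier results of these data known. Scripts were tested on simulated data. Alternatives included DESeq2 1.42.0, no filter, a stricter threshold, left-out libraries and, chosen after seeing the data, replicates 1 and 2 alone and halved counts.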

Additional observations from a re-analysis of the deposited data

Results flagged for a closer look

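Of 25 receptors tested, the effect of a knockout differed between the lines for 8 in *Kmt2c* KO and 5 in *Kmt2d* KO. Over all 13882 genes tested, 16.0% and 10.6% differed. The test was the interaction test of edgeR (log2 effect in 67NR minus that in 168FARN, Benjamini-Hochberg adjusted p under 0.1 and absolute difference over 0.6). In *Kmt2c* KO the receptors were *Pdgfra* at 3.63, *Pdgfrb* at 3.03, *Fgfr1* at 2.84, *Alk* at 4.05, *Axl* at 1.47, *Ror1* at -2.17, *Insr* at -1.32 and *Erbb2* at -0.83. In *Kmt2d* KO they were *Pdgfra* at 2.75, *Pdgfrb* at 2.24, *Fgfr1* at 1.68, *Alk* at 2.80 and *Ptk7* at 3.44. *Pdgfra* and *Alk* kept both calls, and *Pdgfrb* and *Fgfr1* in *Kmt2c* KO and *Ptk7* in *Kmt2d* KO kept theirs, in all 12 fits that left out 1 library. *Ror1* lost its call without 168FARN WT replicate 2 (adjusted p = 0.10). The others rested on most of the libraries: *Erbb2* was called in 2, *Axl* in 3 and *Insr* in 4 of 12 such fits, and *Pdgfrb* and *Fgfr1* in *Kmt2d* KO in 3 of 12 each, with adjusted p up to 0.28. No group had the 4 to 10 samples that the test for a single outlying sample needs.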

How the results depend on the processing

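In 67NR the counts of called receptors against WT, 12 for *Kmt2c* and 9 for *Kmt2d*, and the 18 called between the WT lines stayed within 1.5 times under every alternative (leaving out 1 library gave 9 to 11, 7 to 8 and 17 to 18). Halving the 67NR counts changed no count. The replicate block moved the count from 0 to 3 for 168FARN *Kmt2c* KO, from 1 to 2 for 168FARN *Kmt2d* KO, from 0 to 2 between the 168FARN KOs, from 1 to 4 between the 67NR KOs and from 8 to 12 and from 5 to 8 for the *Kmt2c* and *Kmt2d* differences between the lines. DESeq2's Wald test gave 2 for 168FARN *Kmt2c* KO, 1 between the 168FARN KOs and 2 between the 67NR KOs. Fitting the 6 compared libraries alone gave 0 for 168FARN *Kmt2d* KO and 0 between the 67NR KOs. Replicates 1 and 2 alone, chosen after seeing the data like the halved counts, gave 5 for 168FARN *Kmt2c* KO, 2 for 168FARN *Kmt2d* KO, 3 and 4 between the KOs of 168FARN and 67NR, and 8 for the *Kmt2d* difference. At adjusted p under 0.05 with no fold threshold the differences between the lines counted 5 (*Kmt2c*) and 3 (*Kmt2d*). Leaving out 1 library gave 0 to 1 for 168FARN *Kmt2d* KO, 0 to 1 between the 67NR KOs, 5 to 8 for the *Kmt2c* and 3 to 5 for the *Kmt2d* difference, and 0 in all such fits for 168FARN *Kmt2c* KO and between the 168FARN KOs. Beyond what the construction of a setting shows, the cause of these moves was not tested. Over 72 single receptor results, 949 of 1082 alternative values kept direction and side of the threshold, 93 lost the call, 40 gained one, and none called changed sign. Depth limits *Alk*, *Csf1r*, *Egfr* and *Fgfr3* in 67NR, *Alk*, *Flt1* and *Ror1* in 168FARN, and *Ptk7* in 168FARN *Kmt2d* KO. All rest on few counts in some libraries. *Ror1* had 13 to 24 counts per library in 168FARN WT and 6 to 35 in 168FARN *Kmt2d* KO.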
